A study of Rattus norvegicus with 6 samples.

Results

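The 8 genes described here are p53 targets, Sfn, Cdkn1a, Mdm2, Bax, Bbc3, Phlda3, Ccng1 and Gdf15, out of 28282 gene symbols counted by single-nucleus RNA sequencing (snRNA-seq) of the rat ileum. They were picked by symbol, as direct targets of p53, and because Sfn had about 4-fold more unique molecular identifiers (UMIs, each standing for 1 captured RNA molecule) in SAP than in CON libraries. The difference in Sfn between the groups is therefore given as a description, with no test. The nuclei came from wild type male Sprague–Dawley rats, obtained at 6 weeks of age and kept for another 7 days before the operation, with 3 rats and 3 libraries in each group. In the SAP group severe acute pancreatitis was induced with 3% sodium taurocholate infused backwards into the pancreatic duct, and the ileum was taken after 24 h. The dose was 0.1 mL per 100 g of body weight at 0.1 mL/min, and the duct was then clamped for 5 min. After the operation the rats had water but no food. The CON rats had a sham laparotomy without infusion, so both groups were operated on, and rats of both groups were given 3% pentobarbital sodium at 40 mg/kg as the anesthetic. Each library held the ileum of 1 rat, and the labels do not say whether a rat was in the same cage or litter as another.

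p53 is a transcription factor that is held at a low level by the ubiquitin ligase Mdm2 and accumulates after DNA damage and other stress. Its targets halt the cell cycle, start apoptosis, repair DNA, adjust metabolism and, through Mdm2, switch p53 off again. In the gut, p53 is best known for the apoptosis of crypt cells after irradiation. Sfn encodes 14-3-3 sigma, the 14-3-3 protein of epithelia, which keeps cyclin-dependent kinase complexes in the cytoplasm. It is also switched on in differentiating epithelial cells without p53.

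The tables listed 90461 barcodes, of which 40970 passed the study's quality limits of at least 1200 UMIs, at least 500 genes and at most 5% mitochondrial UMIs. Passing nuclei numbered 3189 to 9246 per library and summed to 5549260 to 28771508 UMIs. The tables of CON 2 and SAP 1 also listed barcodes under 1000 UMIs, which the other 4 tables did not. The median mitochondrial share was 0.125% to 0.700% in CON and 0.387% to 1.84% in SAP. Classes of nuclei were rebuilt by clustering and named from marker genes, with "-like" added to each name. They held 31628 epithelial nuclei (77.2%) and 9342 others, and the 9 enterocyte markers found in the tables summed to 408 to 2233 CPM (UMIs scaled to a library total of 1000000) over all nuclei of a library.

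Sfn was higher in all 3 SAP libraries than in any CON library. Over all nuclei it stood at 12.4, 9.91 and 21.6 CPM in the CON libraries and at 56.6, 66.0 and 48.8 CPM in the SAP libraries, from 113 to 1022 UMIs each. The lowest SAP library, SAP 3, was well above CON 3, the highest CON library (4.53% of all genes tested were higher in SAP with no overlap of the groups). The edgeR fit, which scales libraries by TMM, gave a log2 fold change of 2.03 ± 0.36 (SE, n = 3 rats per group), a fold of 4.09. Epithelial nuclei alone gave Sfn levels of 12.1, 9.85 and 25.3 CPM in CON, 60.5, 70.0 and 66.6 CPM in SAP, and a log2 fold change of 2.07 ± 0.35. Over the other nuclei its mean was 12.0 ± 1.55 CPM in CON and 32.9 ± 11.6 CPM in SAP (SD). A level summed over a library moves both with how many nuclei carry the RNA and with how much each carries, and these cannot be told apart in a sum. The sum of 7 villus tip markers was also higher in every SAP library, at 348, 620 and 913 CPM in CON and 1508, 1521 and 962 CPM in SAP. Taken singly, Ada, Creb3l3 and Apoa4 were higher in SAP with no overlap of the groups (4.53% of all genes tested), and Nt5e, Slc28a2, Klf4 and Egfr overlapped. The part of the villus tip markers in the Sfn difference over all nuclei was not tested.

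**Figure D1:**
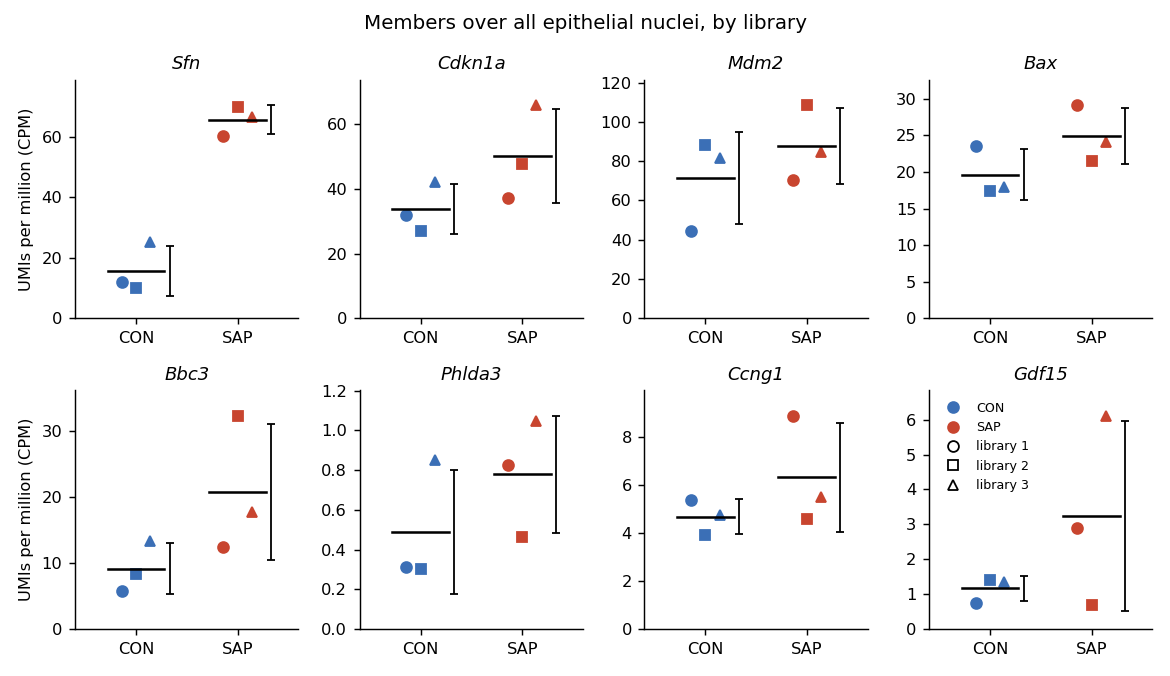
Level of each of the 8 genes over epithelial nuclei in CPM (linear axes from 0), with 1 point per library, marked by replicate, and the mean ± SD of 3 libraries per group. For Sfn the SAP points sit at 60.5 to 70.0 CPM and the CON points at 9.85 to 25.3 CPM, while on this scale of library totals the groups overlap for each of the other 7 genes.

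None of the other 7 genes passed the test. Over all nuclei edgeR's quasi-likelihood test with Benjamini-Hochberg adjustment called 0 of 19187 genes (0.0% of those tested), where a call needs an adjusted p under 0.05 and a log2 fold change of 0.5 or more in either direction. This is the same share as among the 7. At an unadjusted p under 0.05 it found 1618 genes (8.43%), 1 of the 7 among them. Over epithelial nuclei it called 0 of 17253 (0.0%) and found 1909 (11.1%) at the unadjusted limit, again with 1 of the 7. DESeq2 called 110 genes higher (0.392%) and 83 lower (0.295%) over all nuclei, and 145 higher (0.531%) and 106 lower (0.388%) over epithelial nuclei, and none of the 7 was among them. Overlap of the groups depended on how libraries were scaled. On CPM scaled by library totals, the scale of the levels printed here, none of the 7 had groups apart over all nuclei, where 4.53% of all genes were higher and 4.84% lower in SAP with no overlap. On the TMM scale of the fit, compared after the data were seen, 2 of the 7 were higher in SAP with no overlap over all nuclei, Cdkn1a and Bbc3 (4.9% of all genes higher and 9.06% lower), and 1 over epithelial nuclei, Bbc3 (6.36% of all genes higher and 12.2% lower).

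Of the genes that act on the cell cycle, Cdkn1a encodes p21, an inhibitor of cyclin-dependent kinases. It stood at 31.5, 25.4 and 38.6 CPM in CON and at 38.2, 47.1 and 53.7 CPM in SAP over all nuclei. On this scale SAP 1 lay just below CON 3 and the groups overlapped. On the TMM scale Cdkn1a was at 40.3, 24.7 and 31.5 CPM in the CON and 45.1, 51.6 and 41.3 CPM in the SAP libraries, with no overlap though SAP 3 and CON 1 were nearly level. The fit on that scale gave a log2 fold change of 0.52 ± 0.27 (edgeR adjusted p = 0.661). Ccng1 encodes cyclin G1, which recruits a phosphatase to Mdm2. It was at 5.56, 4.47 and 5.02 CPM in CON and 10.1, 5.16 and 5.97 CPM in SAP. SAP 1 alone stood clear of the rest, the log2 fold change was 0.48 ± 0.48 (edgeR adjusted p = 0.850), and it was -0.08 when the 2 libraries that list barcodes under 1000 UMIs were left out.

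The p53 motif is a pair of half-sites of 10 bases with a spacer, and its matches in Cdkn1a and Ccng1 are shown because these are the 2 of the genes here with a match near the start site. It was searched with at most 1 mismatch in all and a spacer of up to 13 bases, in windows from 250 bases before to 50 bases after each RefSeq start on GRCr8. The motif is its own reverse complement, so 1 search covers both strands. Windows were at hand for 6 of the 8 genes, and 335 of all 33469 windows (1.00%) held a match. The half-sites are in capitals, with a spacer of 12 bases in Cdkn1a (chr20:7150704-7150745, + strand) and of 0 bases in Ccng1 (chr10:25685094-25685123, - strand).
Cdkn1a: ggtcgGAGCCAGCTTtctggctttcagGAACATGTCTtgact
Ccng1: cagctAGACCTGCCCGGGCAAGCCTtggca
Each of these 2 matches held 1 mismatch. No match was found in the windows of Sfn, Mdm2, Phlda3 and Gdf15. Sequence outside the windows was not searched, so the absence of a match does not mean that a gene lacks a p53 site. A match is a string of bases and was not measured as a bound site.

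Mdm2, the ligase that closes the p53 feedback loop, was at 50.9, 89.6 and 82.2 CPM in CON and at 72.4, 109 and 95.4 CPM in SAP. The 2 groups overlapped, with a log2 fold change of 0.34 ± 0.26 (edgeR adjusted p = 0.785). Compared only among libraries with the same listing of barcodes, the SAP over CON ratio of Mdm2 was 1.54 in those that start at 1000 UMIs (2 rats against 2) and 0.808 in those that list lower ones (1 against 1). The same ratios of Sfn were 3.38 and 5.71, and those of Cdkn1a were 1.44 and 1.5. For Sfn and Cdkn1a both ratios were above 1, and for Mdm2 they lay on both sides of it.

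Bax and Bbc3 act at the mitochondrion, Bax as the pore-forming protein of apoptosis and Bbc3 (PUMA) as its activator. Bbc3 stood at 6.26, 8.24 and 13.2 CPM in CON and at 13, 30.7 and 17.3 CPM in SAP. SAP 2 was the highest by a wide margin and SAP 1 lay just under CON 3. On the TMM scale Bbc3 was at 8.01, 8.02 and 10.7 CPM in the CON and 15.3, 33.7 and 13.3 CPM in the SAP libraries, without overlap. The log2 fold change of Bbc3 was 1.22 ± 0.42 over all nuclei (edgeR adjusted p = 0.545) and 1.24 ± 0.42 over epithelial nuclei (edgeR adjusted p = 0.413), and it is the 1 of the 7 genes with an unadjusted p under 0.05. Bax was at 23.6, 17.4 and 19.3 CPM in CON and 29.2, 20.9 and 25.3 CPM in SAP. Its groups overlapped, its log2 fold change was 0.28 ± 0.37 (edgeR adjusted p = 0.888), and it was -0.07 without the 2 libraries that list barcodes under 1000 UMIs. Phlda3, which blocks the recruitment of Akt to membranes, was at 1.77, 1.32 and 1.62 CPM in CON and 1.62, 0.775 and 2.21 CPM in SAP. With 9 to 51 UMIs per library the groups overlapped, and the log2 fold change was -0.16 ± 0.54 (edgeR adjusted p = 0.964).

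Gdf15 encodes a secreted stress hormone that acts on the hindbrain to lower food intake. It was counted in only 11 to 94 UMIs per library, at 0.660, 1.32 and 1.32 CPM in CON and 2.70, 0.710 and 4.84 CPM in SAP. SAP 1 and SAP 3 were the highest 2 libraries, and SAP 2 was lower than 2 of the CON libraries. The log2 fold change was 1.26 ± 0.64 (edgeR adjusted p = 0.649).

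Sfn was highest in enterocyte-like nuclei, a part of the absorptive cells of the villus. The larger cluster 1 (5397 nuclei against 3750) also scored highest for enterocyte markers, by too small a lead to take the name. Its mean Sfn level was 27.8 CPM. Enterocyte-like nuclei were 9.15% of passing nuclei and held 1365 of the 3180 Sfn UMIs (42.9%), and epithelial nuclei together held 84.5%. In enterocyte-like nuclei Sfn stood at 31.6, 27.1 and 114 CPM in CON and at 206, 124 and 248 CPM in SAP. All SAP libraries were above all CON libraries, although CON 3 came close to SAP 2. The mean over the 6 libraries was 125 ± 89.5 CPM (SD), against 35.3 ± 20.6 CPM in cluster 5, the next in order. The classes were built from the same counts, so this order is a description.

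Enterocyte-like nuclei had more Sfn than each other class or cluster compared in 6 of 6 libraries, except against B-like nuclei, where it was 5 of 6. The ratio of means ran from 3.54 (against cluster 5) to 10.3 (against cluster 8). The difference to cluster 5 gave p = 0.03125 in an exact two-sided sign-flip permutation test over 6 libraries, which is the smallest p that 6 pairs allow, and it did not pass adjustment over the 136 neighbour pairs of all 8 genes (adjusted p = 1.0). Below the enterocyte-like nuclei the other 17 classes and clusters ran from 35.3 to 12.1 CPM, and none of their neighbour pairs passed the test. With 6 libraries no pair passes unless most of the 136 reach the smallest p, so not passing does not show equal levels. Stem/TA-like nuclei, the dividing cells of the crypt, were at 9.11, 7.38 and 7.30 CPM in CON and at 18.6, 50.1 and 18.6 CPM in SAP. They too were higher in every SAP library, and the enterocyte-like mean was 6.75-fold theirs.

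**Figure D2:**
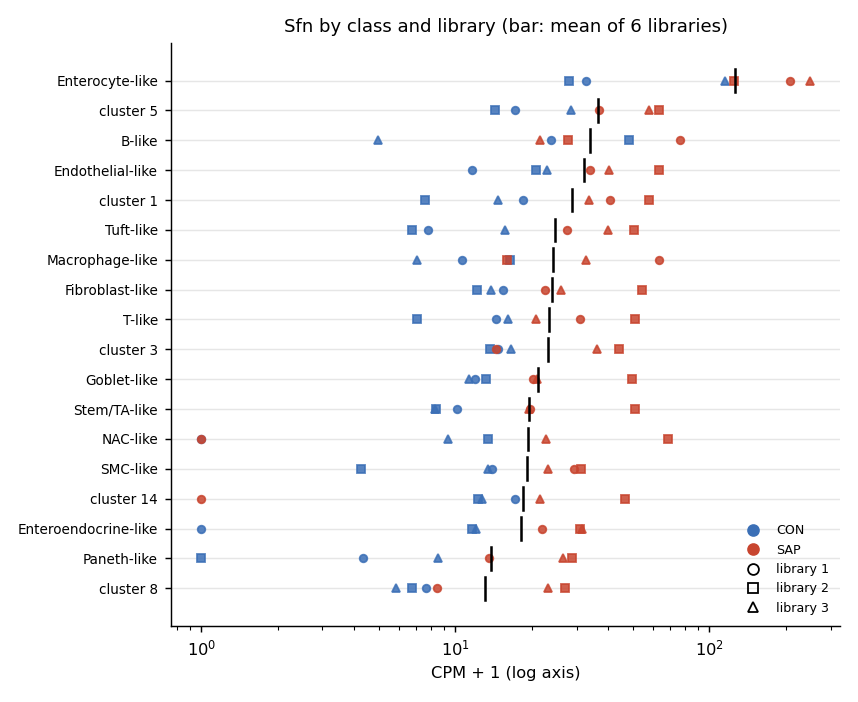
Sfn in CPM plus 1 (log axis) in the 18 classes and clusters compared, with 1 point per library and a bar at the mean of 6 libraries. Enterocyte-like nuclei stand at the top with a mean of 125 CPM, and the other means lie between 12.1 and 35.3 CPM.

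The enterocyte-like nuclei came from 2 clusters with different Sfn. Cluster 6 was led by Ly6m, Apoa4, Samd9, Cyp3a9, Isg15, Slc28a2 and Ada, of which Apoa4, Slc28a2 and Ada are villus tip markers. It held 1104 Sfn UMIs and stood at 25.5, 28.2 and 148 CPM in CON and 282, 151 and 352 CPM in SAP. Cluster 9, led by the bile acid genes Fabp6, Slc51a and Slc51b and by Reg3g, was at 33.7, 25.7 and 71.1 CPM in CON and 63.3, 65.9 and 66.4 CPM in SAP. In cluster 6 every SAP library was above every CON library, with CON 3 and SAP 2 nearly level. In cluster 9 the groups overlapped, CON 3 being the highest of all 6. Cluster 1, an unnamed epithelial cluster led by Slc5a12, Slc2a2 and other absorptive genes, was lower again, at 17.4, 6.61 and 13.7 CPM in CON and 39.8, 57.0 and 32.5 CPM in SAP.

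The makeup of the libraries moved with the group as well. Enterocyte-like nuclei were 6.25%, 4.07% and 6.45% of the CON nuclei and 15.2%, 22.2% and 7.15% of the SAP nuclei. All SAP shares were above the CON shares, but this holds for the class as named, without cluster 1. Cluster 1 also scored highest for enterocyte markers, and its shares overlapped between the groups. Its share was 16.5% in SAP 1 and 30.4% in SAP 2, above every CON library. In SAP 3 it was 9.48%, below CON 2 at 10.8% and below CON 3. Within enterocyte-like nuclei the villus tip markers summed to 969, 2932 and 4397 CPM in CON and 5770, 3578 and 4828 CPM in SAP, where CON 3 lay above SAP 2. CON 1, the lowest in tip markers, was also low in Sfn, while CON 2 had the lowest Sfn and not the lowest tip markers. Their part in the Sfn difference within the class was not tested.

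Free RNA in the droplets puts UMIs into nuclei that do not express a gene, so Sfn was also read in T-like nuclei, which should lack it. With every nucleus thinned to 1200 UMIs, the share of enterocyte-like nuclei with a Sfn UMI was 3.63%, 1.57% and 10.3% in the CON and 18.6%, 13% and 19.0% in the SAP libraries. Without thinning these shares were 10.2%, 4.71% and 19.7% in the CON and 24.6%, 21.6% and 31.0% in the SAP libraries. In T-like nuclei the thinned shares were 1.95%, 0.772% and 1.97% in the CON and 5.61%, 5.46% and 2.35% in the SAP libraries, at a median of 1888 UMIs per nucleus against 2008 in enterocyte-like nuclei. The enterocyte-like share exceeded the T-like share in all 6 libraries.

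Sfn in T-like nuclei was 13.5, 6.07 and 15 CPM in CON and 30.1, 50.1 and 19.8 CPM in SAP, or 7.98% to 42.6% of the level in enterocyte-like nuclei of the same library (median 18.5%). For Fabp1, the enterocyte fatty acid-binding protein, the same share was 4.28% to 33.3% (median 19.4%), and for Anpep, a brush border peptidase, 9.94% to 42.2% (median 26.8%). The apolipoprotein gene Apoa4 was lower, at 0% to 17.2% (median 3.21%). In CON 1, where the Sfn share was the highest at 42.6%, those of Anpep, Fabp1 and Apoa4 were 9.94%, 4.28% and 1.47%. In B-like nuclei the Sfn share ran from 3.48% to 175% (median 29.1%), the highest in CON 2. How much of the Sfn in these nuclei is free RNA was not tested. Squamous epithelium, in which Sfn is abundant, was looked for by 6 markers (Krt5, Krt14, Tp63, Krt13, Dsg3 and Ivl). They summed to 1.36, 1.14 and 6.38 CPM in CON and 0.541, 3.16 and 8.90 CPM in SAP, so the groups overlapped, and Krt5, Krt14, Krt13 and Ivl were each at 0 in at least 1 library.

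Sfn was found in 2374 nuclei (5.79% of all that passed), and 83.1% of these held a single Sfn UMI. At least 5 Sfn UMIs were found in 32 nuclei, 28 of them enterocyte-like, 6 from CON and 26 from SAP libraries. They held 318 Sfn UMIs and no UMI of the squamous markers, at a median of 8410 UMIs per nucleus. The highest was 1 nucleus of SAP 3 with 71 Sfn UMIs among 35728, which also held 18 Cdkn1a UMIs. Without it Sfn in the enterocyte-like nuclei of SAP 3 was 214 CPM in place of 248, and the mean over libraries 119 CPM in place of 125.

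None of the other 7 genes had its highest mean in enterocyte-like nuclei, although Cdkn1a (65.0 CPM) and Bbc3 (24.8 CPM) did at the coarser Leiden resolution of 0.4. They also did without CON 2 (70.4 and 26.7 CPM), and Cdkn1a did without SAP 2 (65.9 CPM). Cdkn1a was highest in cluster 8, an epithelial cluster led by Gfra4, Kif19 and Habp2 (64.5 ± 36.6 CPM, SD over 6 libraries), followed by enterocyte-like (62.5 ± 33) and goblet-like nuclei (58.3 ± 12.4), all 3 within their spread. It was lower in Stem/TA-like nuclei, at 22.1 ± 6.26 CPM, below the enterocyte-like level in 6 of 6 libraries. Goblet-like nuclei were above cluster 1, the next in order, in 6 of 6 libraries, which gave p = 0.03125 in the exact sign-flip permutation test and an adjusted p of 1.0. Cdkn1a in cluster 8 was low in CON 1 and SAP 1, at 32.5 and 22.4 CPM, and 56.3 to 109 CPM in the other 4 libraries.

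Mdm2 was counted in each class compared, in every library. Its mean ran from 117 ± 28.6 CPM in B-like nuclei and 106 ± 23.6 CPM in fibroblast-like nuclei to 37.0 ± 26.9 CPM in Paneth-like nuclei. None of the neighbour pairs in this order passed the test, which by its smallest p could not be passed by a few pairs. In 1 pair the difference exceeded its SD, cluster 5 over Paneth-like nuclei, higher in 5 of 6 libraries by 25.3 CPM (SD 24.3, p = 0.09375 in the exact sign-flip permutation test). Bax was highest in cluster 5, an unnamed epithelial cluster led by Reg1a, Tuba1b and ribosomal protein genes, at 34.7, 31.5 and 33.8 CPM in CON and 35.8, 32.1 and 47.4 CPM in SAP. In all 6 libraries this was above Bax in enterocyte-like nuclei, which had 21.3 ± 2.6 CPM. Bbc3 was highest in B-like (25.3 ± 16.8 CPM) and enterocyte-like nuclei (25.1 ± 12.1 CPM). The enterocyte-like level of Bbc3 was 2.61-fold that of Stem/TA-like nuclei, and above it in 6 of 6 libraries.

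The 3 scarcest genes can be placed only roughly. Phlda3 was highest in SMC-like nuclei (smooth muscle), at 12.7 ± 6.28 CPM from 40 UMIs, and 2 Phlda3 UMIs were counted in all enterocyte-like nuclei together. Endothelial-like nuclei came next with 9.31 ± 10.2 CPM, where SAP 1 and SAP 2 were at 0. Ccng1 was highest in NAC-like nuclei (enteric neurons and glia), at 34.8 ± 41.7 CPM from 14 UMIs, a mean set by SAP 1 at 117 CPM. Ccng1 in cluster 5 rested on 90 UMIs and was 11.8 ± 4.50 CPM, above enterocyte-like nuclei in 6 of 6 libraries. Gdf15 stayed under 5 CPM in each class mean, with cluster 8 at 4.52 ± 5.38 CPM from 7 UMIs.

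**Figure D3:**
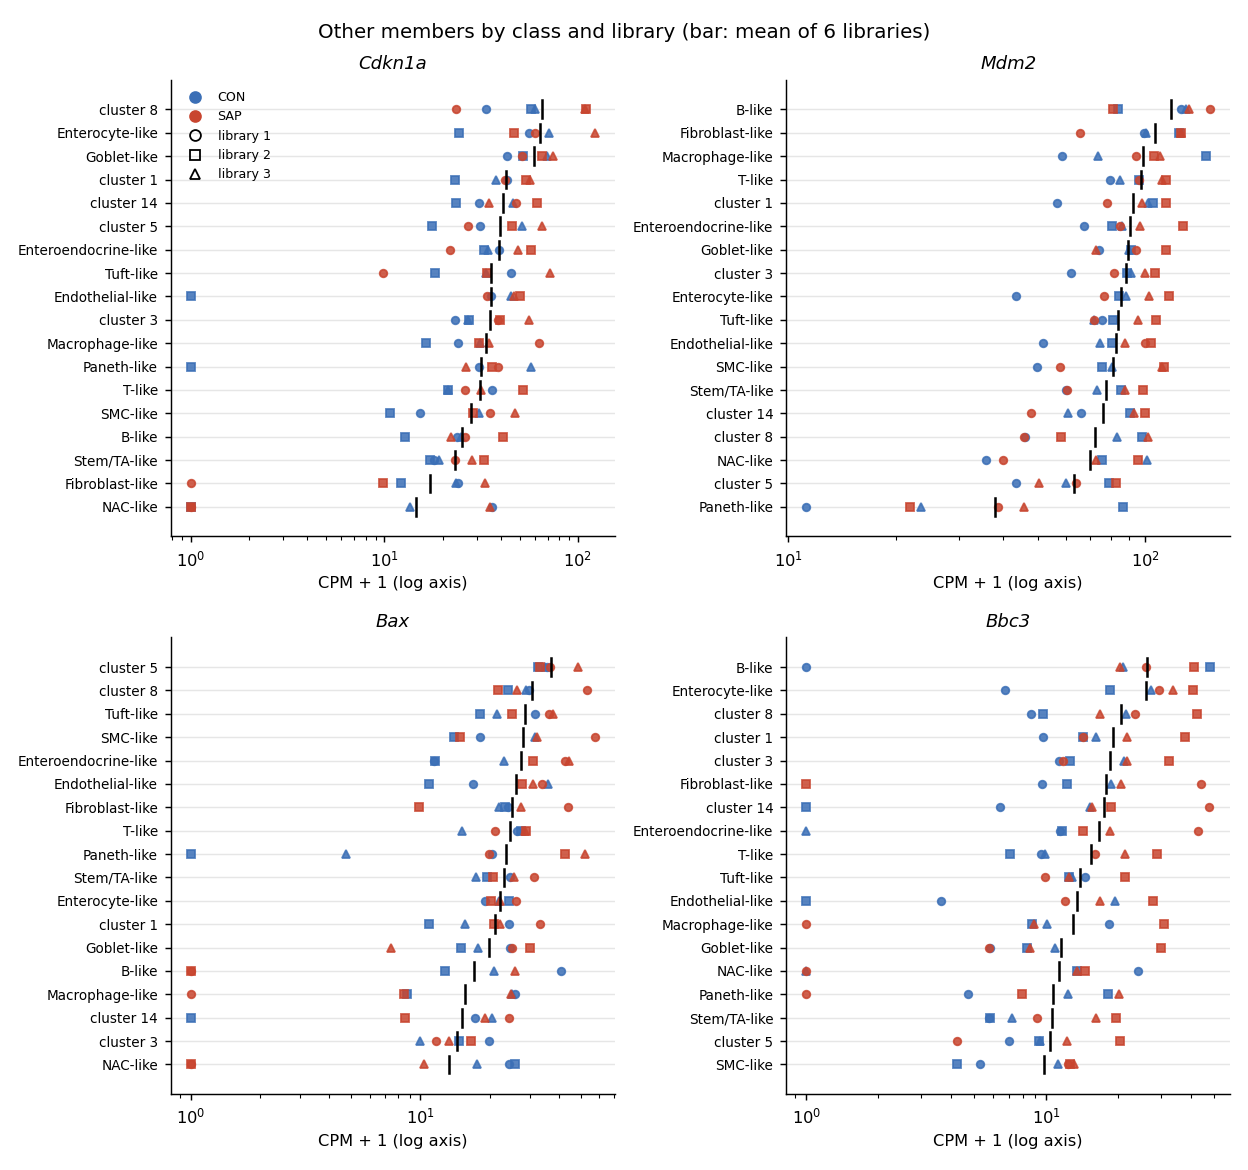
Cdkn1a, Mdm2, Bax and Bbc3 in CPM plus 1 (log axes) in the 18 classes and clusters, with 1 point per library and a bar at the mean of 6 libraries. Mdm2 runs from 37.0 to 117 CPM between class means, and Cdkn1a reaches 64.5 CPM in cluster 8 and 62.5 CPM in enterocyte-like nuclei.

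The difference between SAP and CON was then read class by class, where the makeup of the library counts for less. Sfn had enough counts in 8 classes and clusters and was higher in SAP in each, with log2 fold changes of 1.24 to 1.83, without overlap of the groups in 7 of them. The count limit is met more readily where SAP is high. Among compared classes left out, thinned nuclei gave a SAP mean below the CON mean in Paneth-like nuclei (ratio 0.813, 5 UMIs) and cluster 14 (0.886, 18 UMIs). In the others left out the ratios were 1.80 to 4.05, with overlap except in Tuft-like nuclei and cluster 8. In enterocyte-like nuclei its log2 fold change was 1.79 ± 0.55 and in Stem/TA-like nuclei 1.83 ± 0.48. The other 7 genes gave 47 gene and class pairs, of which edgeR called 0 at the adjusted p, against 2 pairs called higher (0.00138%) and 15 called lower (0.0104%) of 144472 over all genes. An unadjusted p under 0.05 was found for 6 of the 47 (7.69% of all pairs). On library totals SAP was higher with no overlap in 8 of the 47 (4.93% of all pairs) and lower with none in 0 (6.78% of all pairs). On the TMM scale these counts were 13 (6.02% of all pairs) and 0 (7.56% of all pairs). The classes share libraries and free RNA, so these pairs are not independent of each other.

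Of the 6 pairs at an unadjusted p under 0.05, 4 were of Bbc3 and 2 of Cdkn1a. Bbc3 was tested in 7 classes, with log2 fold changes of 0.71 to 1.48, all above 0 (50.9% of all pairs were above and 49.1% below), and its groups did not overlap in 3 of them. Among the compared classes left out, its SAP mean was below its CON mean in NAC-like (ratio 0.728, 8 UMIs) and Paneth-like nuclei (ratio 0.812, 27 UMIs). In the others left out Bbc3 was higher in SAP without thinning. With thinned nuclei it was lower in Macrophage-like nuclei (ratio 0.720, 11 UMIs). In enterocyte-like nuclei it was at 5.75, 17.4 and 26.3 CPM in CON and 28.5, 40.0 and 32.8 CPM in SAP (log2 fold change 1.17 ± 0.44, edgeR adjusted p = 0.875). In Stem/TA-like nuclei it was at 4.76, 4.84 and 6.21 CPM in CON and 8.16, 18.5 and 15.2 CPM in SAP (log2 fold change 1.39 ± 0.40, edgeR adjusted p = 0.573). Cdkn1a was tested in 12 classes and had a log2 fold change above 0 in each, from 0.30 to 0.90, and the lowest adjusted p of the 47 pairs was its 0.297 by edgeR, in cluster 3. Among the compared classes left out, its SAP mean was below its CON mean in Fibroblast-like (ratio 0.724, 47 UMIs) and NAC-like nuclei (ratio 0.723, 17 UMIs). In the others left out Cdkn1a was higher in SAP without thinning. With thinned nuclei it was lower in Paneth-like nuclei (ratio 0.745, 12 UMIs) and in the tested cluster 14 (0.955, 27 UMIs). In Stem/TA-like nuclei it was at 17.0, 16.3 and 18.1 CPM in CON and 22.1, 31.7 and 27.4 CPM in SAP, without overlap.

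Mdm2 was above 0 on the log2 scale in 15 of the 16 classes in which it was tested, with no value over 0.56. With thinned nuclei, its SAP mean was below its CON mean in Fibroblast-like nuclei (ratio 0.873), cluster 5 (0.962), cluster 8 (0.709) and cluster 14 (0.643). In the rest of the 16 it was above. Bax was above 0 in 9 of its 10, with no value over 0.53 (50.9% of all pairs were above 0). In classes left out, the SAP mean of Bax was below its CON mean in B-like (ratio 0.345), Macrophage-like (0.550) and NAC-like nuclei (0.144). In the others left out Bax was higher in SAP without thinning. With thinned nuclei it was lower in Fibroblast-like nuclei (ratio 0.816) and in the tested clusters 3 (0.689) and 5 (0.959). Mdm2 was not tested in NAC-like and Paneth-like nuclei. With nuclei thinned to an equal UMI count, its SAP over CON ratios there were 1.51 (35 UMIs) and 0.389 (18 UMIs). Ccng1 had enough counts in 2, and Phlda3 and Gdf15 in 0. Whether enterocyte-like and Stem/TA-like nuclei differed in their SAP response was tested by the class by group term. edgeR called 0 of 13147 genes (0.0%), with 461 at an unadjusted p under 0.05. For Cdkn1a the log2 fold change in enterocyte-like less that in Stem/TA-like nuclei was -0.12 ± 0.53, for Bbc3 -0.20 ± 0.44, for Bax -0.27 ± 0.34 and for Mdm2 0.33 ± 0.28, each with an edgeR adjusted p of at least 0.999.

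Within enterocyte-like nuclei, the 758 with a Sfn UMI were compared with the 2992 without one, library by library. Cdkn1a was at 86.9, 34.1 and 80.4 CPM in CON and 88.6, 59.6 and 163 CPM in SAP in nuclei with a Sfn UMI. In nuclei without one it was at 41.5, 22.6 and 64 CPM in CON and 47.5, 41.0 and 92.6 CPM in SAP. Nuclei with a Sfn UMI were higher in 6 of 6 libraries, by 0.70 on the log2(CPM + 1) scale (SD 0.27), with p = 0.03125 in the exact sign-flip permutation test, the smallest possible, and 0.219 after adjustment over 7 genes. CON 2 had 12 nuclei with a Sfn UMI, which held 1 Cdkn1a UMI among them, so the count of 6 and this p rest on that UMI. No gene can pass the adjustment unless most of the 7 reach the smallest p, so not passing does not show equal levels.

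Nuclei with a Sfn UMI were also deeper, with a median of 2400 UMIs against 1946. Among nuclei of 1200 to 3000 UMIs the mean log2 difference of Cdkn1a was -0.58, higher in 3 of 6 libraries, and in cluster 6 alone it was -0.15, higher in 5 of 6. In both of these, nuclei of CON 2 with a Sfn UMI held no Cdkn1a UMI, which weighs on a mean of logs. The other 6 genes differed by -0.99 (Gdf15) to 0.25 (Bax), and none passed adjustment in the exact permutation test.

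**Figure D4:**
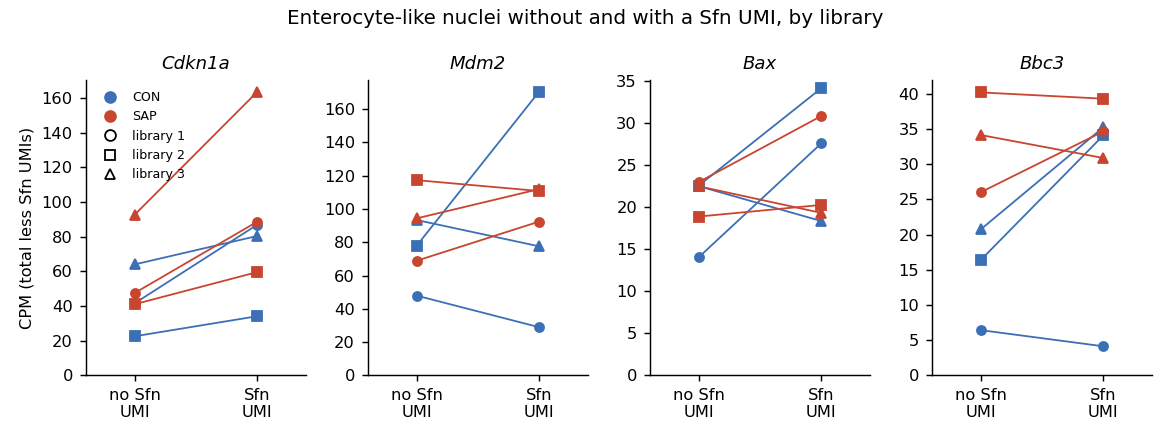
Cdkn1a, Mdm2, Bax and Bbc3 in enterocyte-like nuclei without and with a Sfn UMI, in CPM of the total less Sfn (linear axes from 0), with a line per library that joins its 2 values. For Cdkn1a all 6 lines rise, from 22.6 to 92.6 CPM without to 34.1 to 163 CPM with a Sfn UMI.

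The wider set of p53 targets, 46 genes without Sfn, lay more often above than below 0 over epithelial nuclei. Of the 45 with enough counts, 34 had a log2 fold change above 0 and 11 below, with a median of 0.33, where 49.9% of all genes tested were above 0 and the median was -0.00109. The groups did not overlap for 8 genes higher in SAP (5.36% of all genes) and 2 lower (5.03% of all genes). edgeR called 0 of them, with 8 higher and 1 lower at an unadjusted p under 0.05 (11.1% of all genes in either direction), and DESeq2 called 1, Gadd45a, higher (0.531% of all genes). Over all nuclei 33 were above 0 (52.2% of all genes) and 13 below (47.8% of all genes), with a median of 0.37. These genes were listed with earlier results of these rats known.

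The 5 highest log2 fold changes among those with at least 5 CPM were of Pmaip1, Gadd45a, Btg2, Zmat3 and Tnfrsf12a. Pmaip1 (NOXA), a BH3-only activator of apoptosis like Bbc3, was at 4.40, 9.54 and 18.1 CPM in CON and 21.1, 31.5 and 26.8 CPM in SAP epithelial nuclei (log2 fold change 1.4 ± 0.39, edgeR adjusted p = 0.399). Gadd45a, a growth arrest gene, was at 9.86, 12.3 and 20.4 CPM in CON and 24.4, 32.9 and 35.7 CPM in SAP (1.13 ± 0.27, edgeR adjusted p = 0.399). The antiproliferative gene Btg2 stood at 93.9, 61.2 and 127 CPM in CON and 210, 207 and 186 CPM in SAP (1.07 ± 0.34, edgeR adjusted p = 0.407). In all 3 the groups did not overlap. Zmat3, an RNA-binding regulator of splicing, had a log2 fold change of 1.04 ± 0.34 without overlap, and Tnfrsf12a, the TWEAK receptor, 1.03 ± 0.70 with overlap.

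The 5 lowest were of Polk, Ddb2, Fdxr, Tnfrsf10b and Steap3. Polk, a translesion DNA polymerase, was at 28.6, 51.8 and 36.3 CPM in CON and 20.9, 22.5 and 27.2 CPM in SAP, without overlap (log2 fold change -0.75 ± 0.25, edgeR adjusted p = 0.409). Ddb2, which senses ultraviolet damage, had -0.60 ± 0.34, the ferredoxin reductase Fdxr -0.50 ± 0.38, the death receptor Tnfrsf10b -0.49 ± 0.32 and the ferrireductase Steap3 -0.47 ± 0.26. Of these 4 only Steap3 had groups that did not overlap. Among the targets with the highest mean CPM were Apaf1 (0.52 ± 0.35), Sat1 (0.91 ± 0.39), Cd82 (0.49 ± 0.28) and Sesn1 (-0.05 ± 0.20), given as log2 fold changes, and for all 4 the groups overlapped.

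The genes that sense damage and pass it to p53 lay on the lower side. All 19 had a log2 fold change below 0 over epithelial nuclei, with a median of -0.56, where 50.1% of all genes were below 0. edgeR called 0 of the 19, with 7 at an unadjusted p under 0.05 (11.1% of all genes), and 1 was lower in SAP with no overlap on library totals (5.03% of all genes). Atm, the kinase of the double-strand break response, was at 80.6, 146 and 116 CPM in CON and 70.8, 44.9 and 111 CPM in SAP (log2 fold change -0.64 ± 0.28). Mdm4, which restrains p53 beside Mdm2, had a log2 fold change of -0.31 ± 0.20. SAP 2 was the lowest library for Atm. Many of these genes are used in DNA replication, and the share of Stem/TA-like nuclei was 28.4%, 37.0% and 21.8% in the CON and 17.1%, 7.89% and 15.1% in the SAP libraries, without overlap. The 8 markers of dividing cells summed to 599, 559 and 401 CPM in CON and 305, 112 and 434 CPM in SAP over all nuclei. The part of this shift in the damage genes was not tested. Over the nuclei that are not epithelial, 17 of the 19 had a log2 fold change below 0 (47.9% of all genes), with a median of -0.22. There 3 of the 19 were lower in SAP with no overlap on library totals (6.95% of all genes) and 0 higher (4.3% of all genes).

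**Figure D5:**
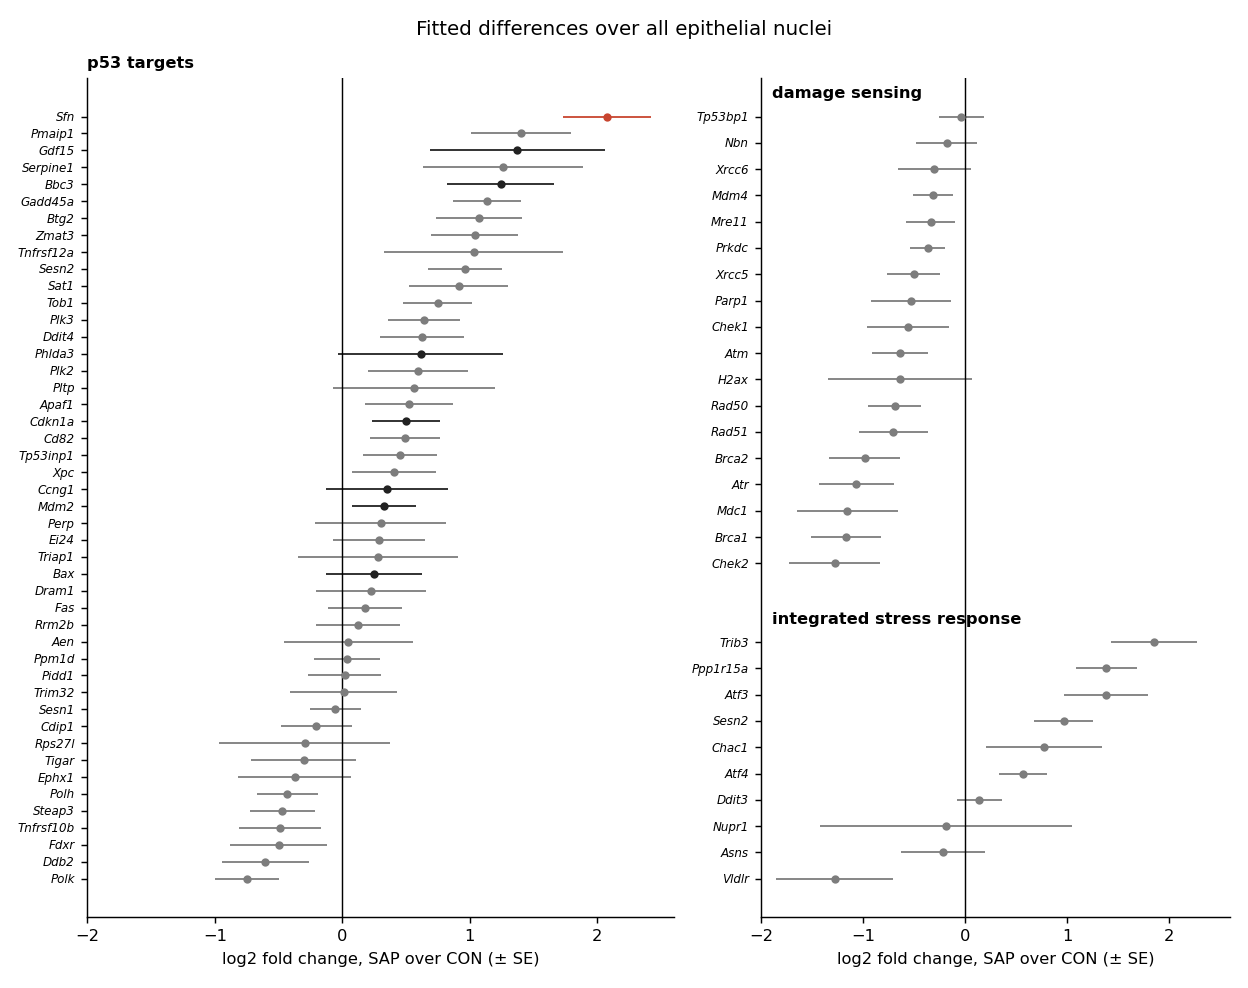
Fitted log2 fold change of SAP over CON over epithelial nuclei for each tested gene of the p53 target, damage sensing and integrated stress response lists, with bars for the SE of the edgeR fit and a line at 0. Sfn lies furthest to the right at 2.07, and the damage sensing genes drawn all lie left of 0.

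The rest of the 14-3-3 family is given beside Sfn. These 6 genes encode proteins that bind phosphorylated partners in most cell types and had log2 fold changes over epithelial nuclei of -0.33 ± 0.37 (Ywhag), -0.33 ± 0.30 (Ywhaq), -0.24 ± 0.22 (Ywhae), 0.18 ± 0.19 (Ywhah), 0.20 ± 0.20 (Ywhaz) and 0.26 ± 0.28 (Ywhab). Their groups all overlapped, and their lowest adjusted p by edgeR was 0.701. Ywhae, with 249 ± 56.6 CPM in CON and 216 ± 33.4 CPM in SAP, was typical of them.

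The integrated stress response, which slows translation under amino acid or protein folding stress and shares Sesn2 with p53, was read for comparison. Of 10 genes, 7 had a log2 fold change above 0 over epithelial nuclei and 3 below, with a median of 0.67, where 49.9% of all genes were above 0. edgeR called 0 of the 10, with 5 at an unadjusted p under 0.05 (11.1% of all genes). Trib3, a pseudokinase induced by Atf4, was at 4.98, 3.42 and 8.71 CPM in CON and 18.2, 26.1 and 17.4 CPM in SAP, and Ppp1r15a (GADD34), which restores translation, at 4.13, 4.92 and 8.64 CPM in CON and 14, 13.6 and 18.8 CPM in SAP. They were 2 of the 4 higher in SAP with no overlap (5.36% of all genes), against 1 lower (5.03% of all genes), with log2 fold changes of 1.85 ± 0.42 and 1.38 ± 0.30 (edgeR adjusted p = 0.399 for each), and DESeq2 called both higher (0.531% of all genes). The lowest were Vldlr, a lipoprotein receptor, at -1.28 ± 0.57, and Asns, asparagine synthetase, at -0.22 ± 0.41.

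The genes most like Sfn over the mean levels of 22 classes and clusters, among 19186 genes, were RGD1565367 (Pearson r = 0.854), Tmem37 (0.850), Apoa1 (0.831), Apoc2 (0.817) and Cyp3a9 (0.817). Apoa1 and Apoc2 encode apolipoproteins and Cyp3a9 a cytochrome P450. With the other genes of the group Sfn gave 0.393 (Mdm2), 0.326 (Bbc3), 0.104 (Cdkn1a) and values from -0.24 to -0.02 for the remaining 4. Cdkn1a was most like Rbm42 (0.769), LOC100909729 (0.763), Ap3m1 (0.756), Isg15 (0.742) and Card19 (0.740). Mdm2 was most like Eps15 (0.896), Mtmr3 (0.885), Ap5z1 (0.884), Tmem165 (0.882) and Ccnc (0.876). These correlations are over classes of the same 6 libraries, on the log2(CPM + 1) scale, and small classes with few UMIs weigh as much as large ones.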

How the data were processed

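Ileal snRNA-seq libraries of 3 CON and 3 SAP rats were analysed. The authors made gene by barcode tables of UMIs with dnbc4tools, and the deposited matrices, whose header names PISA 1.0, hold whole-number counts that were not normalized. The submitters' processing notes name mRatBN7.2 and Seurat 4.3.0. The annotation and the handling of intronic reads are not given in the sources used here. Depth sets the precision: 5549260 to 28771508 UMIs per library passed.

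Nuclei were clustered with scanpy 1.11.5 (2000 variable genes, 30 components, library correction, Leiden resolution 0.8, 24 clusters). A cluster took the class name whose markers led by at least 1.0, a limit set after the clusters were seen, and otherwise kept its number. The 18 classes and clusters in which no library had under 10 nuclei were compared. The own threshold of Scrublet, run in scanpy 1.11.5, marked 0 nuclei and so did not work here. No doublets were removed, and leaving out the 2046 nuclei with the highest scores was an alternative.

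UMIs were summed per library and class. CPM is UMIs scaled to 1000000 UMIs in that sum. Tests were edgeR 4.0.16 quasi-likelihood tests with filterByExpr, TMM scaling and a robust fit, adjusted by Benjamini-Hochberg over all genes tested. A call needed an adjusted p under 0.05 and a log2 fold change of 0.5 or more in either direction. DESeq2 1.42.0 was an alternative, beside TMM against library totals, no filter, other nuclei limits, Leiden 0.4 and each library left out. The p-values measure the spread between rats, since each library is 1 rat. Deviations of same-numbered CON and SAP libraries from their group means correlated at 0.577, 0.183 and 0.524 over all nuclei, from the data and not the labels, so a replicate block was an alternative. Over epithelial nuclei they were 0.593, 0.0603 and 0.436. The sample labels used here do not tell batches apart. Any 2 libraries shared 195 to 746 barcode names of passing nuclei, 0 of them with the same UMI and gene totals.

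The 8 genes and all lists were chosen with earlier results of these data known. Named beside the 8 were the p53 targets with the 5 highest and 5 lowest log2 fold changes and the 5 highest mean CPM over epithelial nuclei (at least 5 CPM), Mdm4 and Atm, all 14-3-3 genes, and the 2 highest and 2 lowest stress response genes. 1 further gene that the rule names is not reported here. Sequences came from RefSeq (GRCr8). Spatial, protein and imaging data were not analysed here.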

Additional observations from a re-analysis of the deposited data

Results flagged for a closer look

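Bax differed in direction between 2 classes. In Enteroendocrine-like nuclei it was at 10.4, 10.6 and 22.1 CPM in CON and 41.8, 29.9 and 43.6 CPM in SAP, a SAP mean 24.1 CPM above the CON mean. In NAC-like nuclei, with 11 Bax UMIs in all, it was at 23.2, 24.9 and 16.7 CPM in CON and 0, 0 and 9.33 CPM in SAP, a difference of -18.5 CPM. SAP 1 and SAP 2, both at 0, held only 10 and 19 NAC-like nuclei. The difference between the classes was not tested, since Bax had too few counts in both.

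Sfn was also read in the barcodes that did not pass the quality limits, which no comparison used. It was at 15.2, 10.7 and 12.8 CPM there in CON and at 41.3, 73.0 and 41.7 CPM in SAP, so the lowest SAP library (41.3 CPM) was above the highest CON library (15.2 CPM). These barcodes came from the same rats and libraries as the passing nuclei, so this is no separate support. The share of all genes without overlap there was not computed.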

How the results depend on the processing

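The counts of called genes of the group, 0 over all nuclei, over epithelial nuclei and over classes, were 0 under each alternative run. The count of called p53 targets, 0 by edgeR, was 1 by DESeq2 over all nuclei and 1 over epithelial nuclei (Gadd45a), where DESeq2 tested more genes. With replicate number as a block, taking the libraries as paired, each count of calls was again 0, and 32 of 32 results kept their direction and side of the threshold. The log2 fold change of Sfn was 2.02 with the block over all nuclei and 2.14 over epithelial nuclei. Its highest class was enterocyte-like in each alternative, with a mean of 100 to 145 CPM. On the TMM scale in place of library totals, chosen after seeing the data, the other 7 genes higher in SAP with no overlap numbered 2 in place of 0 over all nuclei, 1 in place of 0 over epithelial nuclei and 13 in place of 8 of the pairs by class.

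Leaving out CON 2 and SAP 1 together, an alternative chosen after seeing the data, turned Bax to -0.067 and Ccng1 to -0.078 over all nuclei, and to -0.19 and -0.31 over epithelial nuclei. Leaving out 1 library at a time, the log2 fold change ran from -0.33 to 0.19 for Phlda3 over all nuclei (0.14 without SAP 2), from -0.066 to 0.76 for Ccng1 over epithelial nuclei, from -0.13 to 0.27 for Bax in enterocyte-like nuclei, and in Stem/TA-like nuclei from -0.020 to 0.30 for Mdm2 and from -0.11 to 0.54 for Ccng1. For nuclei with against without a Sfn UMI the log2 difference was, in cluster 6 alone, -0.15 for Cdkn1a, -0.069 for Mdm2, -0.62 for Bax, -1.39 for Bbc3 and 1.01 for Ccng1. Among nuclei of 1200 to 3000 UMIs it was -0.58 for Cdkn1a, -1.57 for Bax, -1.20 for Bbc3, -0.12 for Phlda3 and 0.81 for Ccng1. With 1 library left out it ran from 0.63 to 0.77 for Cdkn1a, from -0.078 to 0.29 for Mdm2, from -0.10 to 0.24 for Phlda3 and from -0.18 to 0.31 for Ccng1 (0.03 without SAP 3). None of these had passed a test, and the causes were not tested. Low counts limit Phlda3, Ccng1 and Gdf15, which have 162 to 562 UMIs over all passing nuclei.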
